A study of Homo sapiens with 24 samples.

Results

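The HOX genes are the homeobox genes that lie side by side in 4 clusters, HOXA, HOXB, HOXC and HOXD, and this account follows them in HCT116 cells treated with inhibitors of DNA methyltransferase 1. The members were all probe sets of the Affymetrix HG-U133 Plus 2.0 array whose only gene symbol was HOXA, HOXB, HOXC or HOXD followed by digits. They numbered 44 of 54613 probe sets that are not controls, and stood for 28 genes: 1 of HOXA, 10 of HOXB, 9 of HOXC and 8 of HOXD. The RefSeq gene table lists 39 HOX genes, 11 in HOXA, 10 in HOXB, 9 in HOXC and 9 in HOXD. HOXA was thus represented by HOXA2 alone, whose levels were too low to test.

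HCT116 is an established human colorectal cancer cell line. The cells were exposed for 72 h to a compound or to its solvent, dimethyl sulfoxide (DMSO), and the level of RNA was read on 24 arrays in 11 groups. Decitabine (DAC) was given at 5 µM and at 120 nM, G668684 at 7 µM and at 150 nM, and azacytidine (Aza) and G669043 each at 1500 nM and at 150 nM, with 2 arrays per dose. G669071 was also given at 2 doses with 2 arrays each. Its sample titles state 63 µM and 6 µM where the source names state 120 nM and 6 nM, and here they go by higher and lower dose. The titles put the word phos before G669071, ester before G668684 and Aza before G669043, and no structure was read from these words. The 4 DMSO arrays received the same volume of solvent, so every group shares it. No label says that arrays of a group came from separate cultures, and the p-values below therefore reflect only how far these samples differ, a spread that may be technical.

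HOX proteins are transcription factors that give cells their position along the head to tail axis of the embryo, and genes at one end of a cluster act nearer the head than those at the other. The position number of a gene names its paralog group, the copies of a single ancestral gene across the clusters: the low numbers (1 to 3) are called anterior, the middle ones (4 to 8) central and the high ones (9 to 13) posterior. Many adult tissues keep part of the embryonic pattern, including the gut epithelium, and in the rest the clusters are held silent by Polycomb proteins and often by DNA methylation. DAC and Aza resemble cytidine, and once built into DNA they bind DNA methyltransferases there, so that methylation is lost as cells divide.

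The start sites of HOX genes differ in how many CG dinucleotides they hold, the sequence that DNA methyltransferase 1 methylates. Promoters are shown for the HOXD genes with the highest and the lowest number of CG, for HOXD13, and for the HOXB gene in the promoter table; each runs from 250 bases before to 50 bases after the start, in RefSeq's annotation of GRCh38.p14, with every CG in capitals. The first and the second are genes that rose after treatment, the third and the fourth genes that passed no test.
HOXD1, chr2:176188418-176188717, plus strand: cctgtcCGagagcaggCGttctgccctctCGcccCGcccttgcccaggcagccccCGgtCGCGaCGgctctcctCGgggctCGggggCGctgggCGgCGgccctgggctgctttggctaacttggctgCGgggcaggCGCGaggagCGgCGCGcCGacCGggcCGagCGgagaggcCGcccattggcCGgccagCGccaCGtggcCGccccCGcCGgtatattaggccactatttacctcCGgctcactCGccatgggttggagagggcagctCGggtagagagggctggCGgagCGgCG
HOXD13, chr2:176092471-176092770, plus strand: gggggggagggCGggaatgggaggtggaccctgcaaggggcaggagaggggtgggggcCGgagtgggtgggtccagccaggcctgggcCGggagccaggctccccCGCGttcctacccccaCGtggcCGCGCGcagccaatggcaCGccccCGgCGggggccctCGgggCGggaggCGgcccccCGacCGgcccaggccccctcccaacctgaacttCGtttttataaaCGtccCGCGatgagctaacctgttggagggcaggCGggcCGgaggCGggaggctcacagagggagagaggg
HOXD4, chr2:176151300-176151599, plus strand: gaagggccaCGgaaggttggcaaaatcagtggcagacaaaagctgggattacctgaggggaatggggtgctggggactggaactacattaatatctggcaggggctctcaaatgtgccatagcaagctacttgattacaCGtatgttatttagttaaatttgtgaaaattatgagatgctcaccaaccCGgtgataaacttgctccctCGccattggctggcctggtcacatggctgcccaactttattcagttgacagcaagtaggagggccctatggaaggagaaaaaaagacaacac
HOXB1, chr17:48530962-48531261, minus strand: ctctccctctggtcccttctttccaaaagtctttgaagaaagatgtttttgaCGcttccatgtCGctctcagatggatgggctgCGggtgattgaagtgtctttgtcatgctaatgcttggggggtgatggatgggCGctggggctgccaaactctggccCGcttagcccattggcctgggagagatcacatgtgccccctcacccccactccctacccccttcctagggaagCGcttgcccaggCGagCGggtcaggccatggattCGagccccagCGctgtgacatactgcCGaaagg

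A CG reads the same on both strands, so each was counted once. HOXD1 held 36, and 12.7% of the 35116 promoters in the table held at least as many. HOXD13 held 24, a number that 33.9% of promoters reached, HOXB1 held 11 (54.7%) and HOXD4 held 4 (75.5%). Of the 26 HOX genes tested below, 9 had a promoter in the table, with a median of 23 CG against 14 over all promoters. Among them HOXD8 with 34 and HOXD11 with 27 had more CG than HOXD13, and HOXD8 passed no test with any compound. No methylation was measured here, so the sequences describe the start sites and no more.

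Each value below is the log2 of the intensity the authors deposited after RMA normalization, which puts arrays on 1 scale. Levels of different HOX probe sets are not set against each other, since probes differ in how strongly they bind. Array medians ran from 6.46 to 6.58. Over the 44426 probe sets tested below, the replicates of a treatment had correlations of 0.989 to 0.997. The DMSO arrays fell into 2 pairs: replicates 1 and 2, and replicates 3 and 4, correlated at 0.996 within a pair and at 0.989 to 0.990 across pairs. As a rough guide to the cell type, markers were placed by the percentile of their mean level among the 41091 probe sets with 1 symbol. Each marker was read from its probe set with the highest mean. The epithelial markers EPCAM, CDH1, KRT8, KRT18 and KRT19 lay between 93.1 and 99.8 and CLDN4 at 76.2. Blood markers lay at 10.9 (PTPRC), 28.0 (CD14) and 73.8 (CD3E), and neuronal ones at 49.9 (SNAP25), 55.9 (RBFOX3) and 89.9 (SYT1). Fibroblast markers lay at 9.55 (LUM), 54.9 (COL1A2), 62.4 (DCN) and 91.3 (COL1A1), so the markers of other cell types were not uniformly low. In whole cultures more RNA per cell and more cells that hold it cannot be told apart.

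Probe sets that reached a log2 level of 5 on at least 2 arrays were tested, 44426 in all. That left 40 HOX probe sets for 26 genes. HOXA2, a gene of the pharyngeal arches, was between 4.50 and 4.80 on treated arrays and between 4.27 and 4.61 on DMSO arrays. HOXD12, a limb gene, was between 4.18 and 4.55 on treated arrays and between 4.36 and 4.73 on DMSO arrays. Both genes fell out, as did 1 of several probe sets each of HOXB1 and HOXD13. Detection calls were not used here, so how far any of these levels lies above background is unknown.

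The 8 genes described most fully below are HOXB2, HOXB3, HOXB6, HOXC6, HOXC9, HOXC10, HOXD1 and HOXD13, each called in at least 3 comparisons with DMSO. HOXB7 was called in 4, and HOXB4 and HOXB5 in 3 each. Their largest changes, 0.34, 0.33 and 0.33 log2 units, were below those of the 8. HOXB6 rose most, 2.90-fold with the higher dose of G669071 and 2.86-fold with DAC at 5 µM, followed by HOXD1 at 2.54-fold and 2.17-fold. In all, 16 of the 26 genes passed the test (limma, adjusted p under 0.05 over all probe sets) in at least 1 of the 10 comparisons with DMSO. The other 10 passed in none, and their changes against DMSO stayed within 0.25 log2 units on the probe set with the highest mean of each gene. A second probe set reached 0.27 for HOXB13 and 0.26 for HOXD4, without a call. With G669043 at 150 nM the probe sets of HOXB13 changed by -0.25 and 0.27. The share of all 18055 genes called in at least 1 of the 10 comparisons was not computed. A single comparison, G668684 at 7 µM, called 30.9% of them, so 16 of 26 is not read as particular to HOX genes. All 10 comparisons share the 4 DMSO arrays, so a deviation of those arrays enters each of them.

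With DAC at 5 µM, 11 of 26 HOX genes were higher than with DMSO and 1 was lower, where 17.4% of all 18055 genes tested were higher and 13.4% lower, 30.7% in all. With the higher dose of G669071, 10 were higher and 0 lower, against 15.2% and 13% of all genes (28.3%). With G668684 at 7 µM, 12 were higher and 1 lower, against 17.0% and 13.9% of all genes (30.9%). The median change of the 26 HOX genes was 0.13, 0.17 and 0.18 log2 units with the same 3 treatments, beside medians of -0.04, -0.03 and -0.04 over all genes. At the lower doses the counts were smaller.

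With DAC at 120 nM, 8 HOX genes were higher and 0 lower, against 11.8% and 9.26% of all genes (21.1%). With the lower dose of G669071, 7 were higher and 0 lower, against 7.88% and 6.16% (14.0%). With G668684 at 150 nM, 6 were higher and 1 lower, against 10.2% and 9.70% (19.9%). Aza and G669043 gave fewer calls. With Aza at 1500 nM, 6 were higher and 0 lower, against 7.42% and 8.49% (15.9%), and with G669043 at 1500 nM 5 were higher and 0 lower, against 5.10% and 2.69% (7.79%). At 150 nM limma called 0 HOX genes with either: with Aza 6 had an unadjusted p under 0.05 and 1.17% of all genes were called, and with G669043 these values were 3 and 0.349%.

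**Figure D1:**
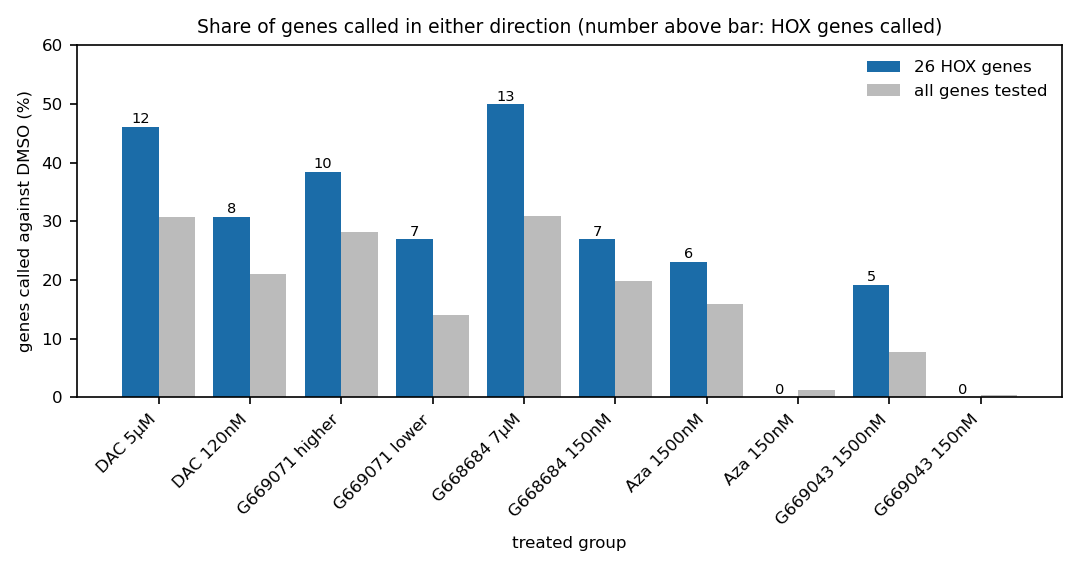
Share of genes called against DMSO in either direction (percent, vertical axis) in each treated group, for the 26 HOX genes (blue, with the number called above the bar) and for all 18055 genes tested (grey). The HOX share was 46.2% against 30.7% of all genes with DAC at 5 µM and 19.2% against 7.79% with G669043 at 1500 nM, and both shares were near 0 with Aza and G669043 at 150 nM.

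Counted by probe set, where several can stand for 1 gene, the shares lay closer to those of the array. With DAC at 5 µM 14 of 40 HOX probe sets were called (35.0%, against 25.3% of all probe sets), with the higher dose of G669071 11 (27.5%, against 23.2%) and with G668684 at 7 µM 14 (35.0%, against 25.4%). With DAC at 120 nM 8 were called (against 17.5%), with the lower dose of G669071 7 (17.5%, against 10.8%) and with G668684 at 150 nM 7 (17.5%, against 16.1%). With Aza at 1500 nM 6 were called (15.0%, against 12.5%) and with G669043 at 1500 nM 5 (12.5%, against 6.02%). At 150 nM 0 were called with Aza (0.833% of all) and 0 with G669043 (0.216%). These shares were not tested against each other. The counts moved by over 1.5 times in several refits: without 1 array of the treated group they were 8 or 8 with DAC at 5 µM, 6 or 7 with the higher dose of G669071 and 8 or 6 with G668684 at 7 µM, 4 without replicate 1 of G668684 at 150 nM, 1 without Aza replicate 2 and 2 or 1 without replicate 1 or 2 of G669043, both at 1500 nM. Without DMSO replicate 3 it was 3 with Aza at 1500 nM, without DMSO replicate 1 or 2 it was 3 with G669043 at 1500 nM, and without DMSO replicate 4 it was 1 with Aza at 150 nM. Against DMSO replicates 1 and 2 alone 8 probe sets were called with G669043 at 150 nM, 3 higher and 5 lower.

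Among the anterior genes 3 of 4, HOXB2, HOXB3 and HOXD1, rose with both doses of DAC and of G668684 and with the higher dose of G669071, and the exception was HOXB1. Of 11 central genes 4 rose and 1 fell with DAC at 5 µM, and 5 rose and 1 fell with G668684 at 7 µM. With the higher dose of G669071 the central genes that rose were HOXB6, HOXB7 and HOXC6. Of 11 posterior genes 4 rose with each of the treatments DAC at 5 µM, the higher dose of G669071 and G668684 at 7 µM. By cluster, 6 of 10 HOXB genes, 3 of 9 HOXC genes and 2 of 7 HOXD genes rose with DAC at 5 µM. Of all genes 17.4% were higher with DAC at 5 µM, 15.2% with the higher dose of G669071 and 17.0% with G668684 at 7 µM. At the lower doses 11.8% were higher with DAC and 10.2% with G668684. The groups of position numbers were chosen as the field names them and hold few genes each. No test of one against another was made.

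**Figure D2:**
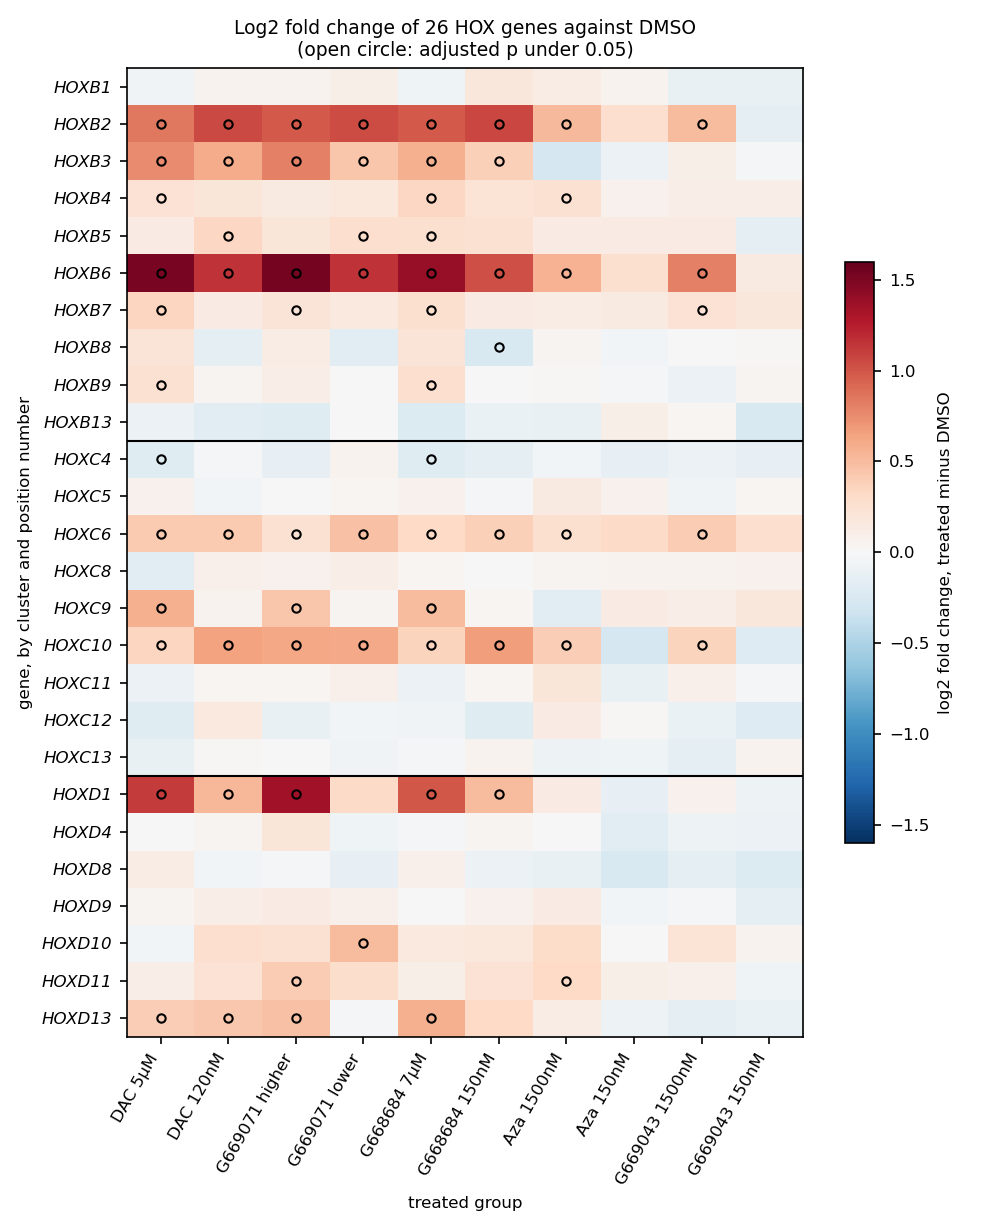
Log2 fold change against DMSO (colour, red for higher) of the 26 HOX genes, one row per gene in order of cluster and position number, in the 10 treated groups; an open circle marks an adjusted p under 0.05. HOXB2 and HOXB6 are red and circled in 8 of 10 groups, HOXD1 reaches 1.35 with the higher dose of G669071, and neighbouring genes such as HOXB1, HOXC8 and HOXD4 stay pale.

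HOXB2 takes part in patterning the hindbrain and the facial nerve in the mouse. On the log2 scale its levels were 9.02 and 8.90 with DAC at 5 µM, 9.18 and 9.16 with DAC at 120 nM, 9.13 and 9.07 with the higher and 9.17 and 9.15 with the lower dose of G669071, and 9.26 and 8.93 with G668684 at 7 µM and 9.11 and 9.27 at 150 nM. They were 8.57 and 8.70 with Aza at 1500 nM, 8.32 and 8.46 at 150 nM, 8.62 and 8.63 with G669043 at 1500 nM and 8.16 and 7.79 at 150 nM, and 8.07, 8.14, 7.96 and 8.30 with DMSO (8.12 ± 0.14, SD, n = 4). Every array of DAC, G669071 and G668684 and of Aza lay above all DMSO arrays, and only the arrays of G669043 at 150 nM fell among or below them. The change was 0.84 ± 0.11 (SE) log2 units with DAC at 5 µM (adjusted p = 3.3e-06) and 1.05 ± 0.11 at 120 nM (3.9e-07), 0.98 and 1.04 with the higher and lower dose of G669071, and 0.98 and 1.07 with G668684 at 7 µM and 150 nM. It was about as large at the low as at the high dose of each of these compounds. With Aza and G669043 at 1500 nM it was smaller, 0.52 (adjusted p = 0.0023) and 0.51 (0.0055), and at 150 nM 0.27 (0.35) and -0.14 (0.49) missed the threshold. The Aza call was lost without Aza replicate 2 (adjusted p = 0.068), and the G669043 call without G669043 replicate 1 (0.055) or 2 (0.085) and when only these groups were fitted (0.071).

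HOXB3, which acts in the hindbrain and the pharyngeal glands and in blood stem cells in the mouse, rose less. The arrays read 8.54 and 8.78 with DAC at 5 µM, 8.35 and 8.64 at 120 nM, 8.63 and 8.77 with the higher and 8.40 and 8.29 with the lower dose of G669071, and 8.34 and 8.59 with G668684 at 7 µM and 8.16 and 8.40 at 150 nM. They were 7.83 and 7.42 with Aza at 1500 nM, 7.74 and 7.87 at 150 nM, 7.95 and 8.02 with G669043 at 1500 nM and 7.99 and 7.75 at 150 nM, and 7.75, 7.86, 8.03 and 7.95 with DMSO (7.90 ± 0.12). Arrays of DAC, G669071 and G668684 were all above DMSO, while those of Aza and G669043 overlapped it. The change was 0.76 ± 0.12 with DAC at 5 µM (adjusted p = 6e-05), 0.60 at 120 nM (0.0014), 0.80 with the higher dose of G669071 (3.7e-05), 0.45 with the lower dose of G669071 (0.02), and 0.57 (0.0013) and 0.38 (0.037) with G668684 at 7 µM and 150 nM. With Aza at 1500 nM it was -0.27 (adjusted p = 0.18).

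The smaller HOXB3 calls lay near the threshold. The call with the lower dose of G669071 was lost without its replicate 1 (adjusted p = 0.22) or 2 (0.093), and that with G668684 at 7 µM without its replicate 2 (0.056). The call with G668684 at 150 nM was lost without its replicate 1 (0.051) or 2 (0.34), or without DMSO replicate 1 (0.084) or 2 (0.062). Against DMSO replicates 3 and 4 alone, adjusted p was 0.074 with the lower dose of G669071 and 0.15 with G668684 at 150 nM, and after each array was centred on its median 0.068 and 0.099. The change itself stayed between 0.26 and 0.50 log2 units in these refits of the 3 calls. A second probe set of HOXB3 ran from 6.65 to 7.07 on treated arrays and from 6.60 to 7.08 on DMSO arrays and was called in no comparison. Averaging the gene's probe sets gave 0.36 with DAC at 5 µM (adjusted p = 6.1e-04), below the first probe set's value and still called.

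HOXB6 is a central gene of the HOXB cluster, known in the mouse for its part in the skeleton and the forming limb. Its log2 levels were 7.90 and 7.93 with DAC at 5 µM, 7.38 and 7.74 at 120 nM, 7.89 and 7.98 with the higher and 7.50 and 7.61 with the lower dose of G669071, and 7.68 and 7.90 with G668684 at 7 µM and 7.22 and 7.64 at 150 nM. They were 6.97 and 6.93 with Aza at 1500 nM, 6.64 and 6.66 at 150 nM, 7.16 and 7.25 with G669043 at 1500 nM and 6.65 and 6.43 at 150 nM, and 6.34, 6.24, 6.46 and 6.56 with DMSO (6.40 ± 0.14). Only 1 treated array, the second of G669043 at 150 nM, lay within the range of the DMSO arrays. The change was 1.52 ± 0.12 with DAC at 5 µM (adjusted p = 3.1e-09), 1.16 at 120 nM (3.7e-07), 1.54 with the higher (2.9e-09) and 1.16 with the lower dose of G669071 (7.2e-07), and 1.39 (1.1e-08) and 1.03 (2.2e-06) with G668684 at 7 µM and 150 nM. G669043 at 1500 nM gave 0.81 (adjusted p = 0.00016) and Aza 0.55 (0.003), and at 150 nM the changes of 0.14 (0.54) and 0.25 (0.48) missed the threshold.

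These HOXB6 values come from a probe set whose suffix, _s_at, marks probes that can bind several transcripts. Among the other called genes, the values of HOXB7, HOXB8, HOXC6 and HOXD1 come from probe sets with the same suffix. Those of HOXB5 come from a probe set that ends in _x_at. The other HOXB6 probe set ran from 5.45 to 5.77 on treated arrays and from 5.49 to 5.74 on DMSO arrays and was called in no comparison. Which transcripts the first probe set reads was not tested. Averaging both gave 0.72 with DAC at 5 µM (adjusted p = 1.2e-07) and kept the calls against DMSO in all 8 comparisons. The 8 calls were also kept when any array was left out.

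HOXB4 and HOXB5, both known for blood stem cells in the mouse, and HOXB7 and HOXB9, genes of the trunk that are expressed in many carcinomas, rose by small amounts in some comparisons. HOXB4 changed by 0.33 with G668684 at 7 µM (adjusted p = 0.0022), 0.24 with Aza at 1500 nM (0.041) and 0.23 with DAC at 5 µM (0.032). Its levels were 8.98 and 8.81, 8.82 and 8.79, and 8.84 and 8.74 there, against 8.45, 8.70, 8.55 and 8.55 with DMSO. All 6 of those arrays were above the DMSO arrays, the nearest by 0.04. Genes shown by array were chosen for a call with such a separation, so it adds no support to their calls. The share of all genes separated in this way was not computed. HOXB5 changed by 0.33 with DAC at 120 nM (adjusted p = 0.0074), 0.27 with the lower dose of G669071 (0.041) and 0.26 with G668684 at 7 µM (0.025), from levels of 8.58 and 8.52, 8.52 and 8.46, and 8.53 and 8.43, against 8.23, 8.20, 8.05 and 8.41 with DMSO. A second HOXB5 probe set changed by 0.145, 0.085 and 0.07 in that order and was called in no comparison with DMSO.

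HOXB7 had 10.81 and 10.91 with DAC at 5 µM, 10.69 and 10.75 with the higher dose of G669071, 10.73 and 10.81 with G668684 at 7 µM and 10.69 and 10.82 with G669043 at 1500 nM, against 10.45, 10.43, 10.60 and 10.60 with DMSO. Its changes were 0.34 (adjusted p = 0.00048), 0.20 (0.033), 0.25 (0.0072) and 0.23 (0.039) in that order, with all treated arrays above DMSO. HOXB9 had 8.78 and 8.83 with DAC at 5 µM and 8.84 and 8.81 with G668684 at 7 µM, against 8.51, 8.70, 8.51 and 8.51 with DMSO, changes of 0.25 (0.025) and 0.27 (0.015). A second HOXB9 probe set changed by 0.05 and -0.025 there and was called in no comparison with DMSO. Averaging the probe sets of HOXB9 ended both of its calls. Of the 12 calls of HOXB4, HOXB5, HOXB7 and HOXB9, 1 was kept in all 15 refits tracked for each call, that of HOXB7 with DAC at 5 µM. Each of the other 11 was lost when 1 array of its treated group was left out, with adjusted p from 0.054 to 0.51.

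HOXB8, which acts in blood progenitors and in microglia in the mouse, fell in 1 comparison. Its levels were 9.75 and 9.93 with G668684 at 150 nM, against 10.06, 10.01, 10.21 and 10.08 with DMSO, a change of -0.25 ± 0.08 (adjusted p = 0.031). Both treated arrays were below DMSO, and without G668684 replicate 1 (0.43) or DMSO replicate 3 (0.084) the call was lost. At 7 µM the same compound gave 10.22 and 10.37. A second HOXB8 probe set changed by -0.07 at 150 nM and was called in no comparison with DMSO. The call of the fall was lost in 8 of 15 refits tracked, among them that with the mean of the gene's probe sets and that with arrays centred on their medians. HOXB1, a hindbrain gene, and HOXB13, a gene of the hindgut and the prostate, were called in none. HOXB13 had 8.64 and 8.63 on DMSO replicates 1 and 2 and 8.08 and 8.03 on replicates 3 and 4, and every treated array but the second of G669043 at 150 nM, at 7.83, and the first of G668684 at 7 µM, at 7.99, lay between these extremes.

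**Figure D3:**
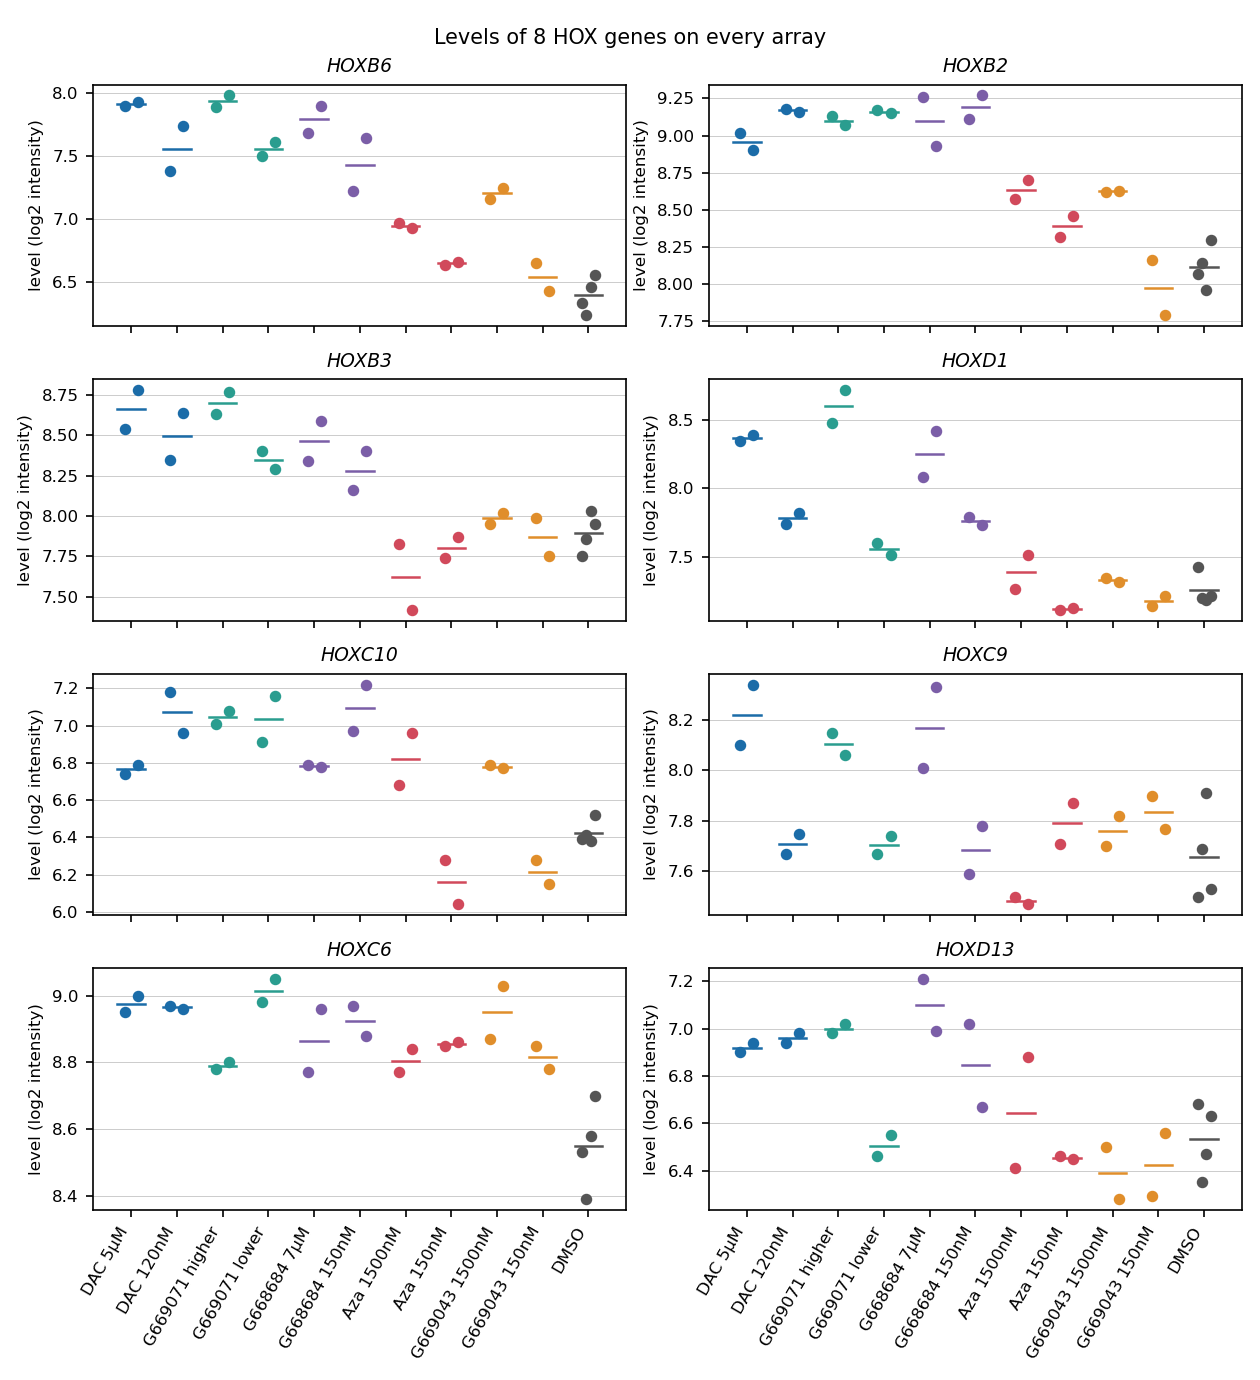
Log2 level (vertical axis, its own scale in each panel) of 8 HOX genes on every array; points are arrays, horizontal lines group means, with treated groups on the left and DMSO on the right. HOXB6 lies between 7.22 and 7.98 on the arrays of DAC, G669071 and G668684 and between 6.24 and 6.56 on the 4 DMSO arrays, and HOXC9 is raised at the higher dose of those compounds while its lower doses overlap DMSO.

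In the HOXC cluster, HOXC6, HOXC9 and HOXC10 rose. HOXC6, a gene of the thorax that is raised in several carcinomas, had log2 levels of 8.95 and 9.0 with DAC at 5 µM, 8.97 and 8.96 at 120 nM, 8.78 and 8.80 with the higher and 8.98 and 9.05 with the lower dose of G669071, and 8.77 and 8.96 with G668684 at 7 µM and 8.97 and 8.88 at 150 nM. They were 8.77 and 8.84 with Aza at 1500 nM, 8.85 and 8.86 at 150 nM, 8.87 and 9.03 with G669043 at 1500 nM and 8.85 and 8.78 at 150 nM, and 8.53, 8.39, 8.58 and 8.70 with DMSO (8.55 ± 0.13). All 20 treated arrays lay above all 4 DMSO arrays. The change was between 0.24 and 0.47 in the 8 comparisons with a call, 0.42 ± 0.08 with DAC at 5 µM (adjusted p = 0.00039) and 0.47 with the lower dose of G669071 (0.00052), and 0.30 (0.095) and 0.27 (0.15) with Aza and G669043 at 150 nM.

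No difference between doses was called for HOXC6, and its calls were the least firm of these 3 genes. Those with DAC at 5 µM and with the lower dose of G669071 were kept in all 15 refits tracked for each call. The call with the higher dose of G669071 (adjusted p = 0.036) was lost without DMSO replicate 1 (0.059) or 2 (0.1) or its own replicate 1 (0.14) or 2 (0.19), and that with Aza at 1500 nM (0.044) without DMSO replicate 1 (0.063), 2 (0.099) or 3 (0.056) or Aza replicate 1 (0.12) or 2 (0.31). Leaving out replicate 2 of G668684 at 7 µM (0.17), replicate 1 at 150 nM (0.061) or replicate 2 of G669043 at 1500 nM (0.15) ended those calls. HOXC4, HOXC5 and HOXC6 overlap in RefSeq, and the first and second share a start, so a probe set may not tell them apart. HOXC5 was called in none, and HOXC4, which acts in mouse B cells, fell by 0.20 with DAC at 5 µM (adjusted p = 0.044) and by 0.20 with G668684 at 7 µM (0.044), calls that were lost without either array of those groups but the second of G668684 (0.18, 0.18 and 0.39) and without DMSO replicate 1, 3 or 4 (0.058 to 0.084).

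HOXC9, which sets thoracic identity of motor neurons in the mouse, was higher at the higher dose of DAC, G669071 and G668684. HOXC9 was not higher at the higher dose of Aza or G669043. Between doses HOXC9 was called for DAC and G668684 alone. On the log2 scale it stood at 8.10 and 8.34 with DAC at 5 µM and 7.67 and 7.75 at 120 nM, 8.15 and 8.06 with the higher and 7.67 and 7.74 with the lower dose of G669071, and 8.01 and 8.33 with G668684 at 7 µM and 7.59 and 7.78 at 150 nM. They were 7.50 and 7.47 with Aza at 1500 nM, 7.71 and 7.87 at 150 nM, 7.70 and 7.82 with G669043 at 1500 nM and 7.90 and 7.77 at 150 nM, and 7.50, 7.69, 7.91 and 7.53 with DMSO (7.66 ± 0.19). The higher doses of DAC, G669071 and G668684 were the only groups whose arrays lay above all DMSO arrays. The change was 0.56 ± 0.11 with DAC at 5 µM (adjusted p = 0.00058), 0.45 with the higher dose of G669071 (0.0048) and 0.51 with G668684 at 7 µM (0.0014), and at the lower doses 0.05, 0.05 and 0.03 (0.84, 0.87 and 0.93). Without replicate 1 of the higher dose of G669071 (0.078) or replicate 2 of G668684 at 7 µM (0.085) those calls were lost.

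HOXC10 acts in lumbar motor neurons and the hindlimb in the mouse. It was higher at the lower dose of DAC and of G668684, by differences that missed the threshold. Its log2 levels were 6.74 and 6.79 with DAC at 5 µM and 7.18 and 6.96 at 120 nM, 7.01 and 7.08 with the higher and 6.91 and 7.16 with the lower dose of G669071, and 6.79 and 6.78 with G668684 at 7 µM and 6.97 and 7.22 at 150 nM. They were 6.68 and 6.96 with Aza at 1500 nM, 6.28 and 6.04 at 150 nM, 6.79 and 6.77 with G669043 at 1500 nM and 6.28 and 6.15 at 150 nM, and 6.39, 6.41, 6.38 and 6.52 with DMSO (6.42 ± 0.06). All arrays of DAC, G669071 and G668684 and of Aza and G669043 at 1500 nM were above DMSO, and those of Aza and G669043 at 150 nM below it. The change was 0.34 ± 0.10 with DAC at 5 µM (adjusted p = 0.017) and 0.65 at 120 nM (9.4e-05), 0.36 (0.011) and 0.67 (7.3e-05) with G668684 at 7 µM and 150 nM, 0.62 (8.8e-05) and 0.61 (0.00033) with the 2 doses of G669071, and 0.40 (0.012) and 0.35 (0.042) with Aza and G669043 at 1500 nM.

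At 150 nM the HOXC10 changes of -0.27 with Aza (adjusted p = 0.33) and -0.21 with G669043 (0.3) missed the threshold. The calls with DAC at 120 nM, both doses of G669071 and G668684 at 150 nM were kept in all 15 refits tracked for each call. Leaving out DAC replicate 1 (0.072) or 2 (0.14) ended the call at 5 µM, G668684 replicate 1 (0.08) or 2 (0.07) that at 7 µM, and Aza replicate 2 (0.32) that of Aza. The G669043 call was lost without DMSO replicate 1 (0.073), 2 (0.068) or 3 (0.07) or its own replicate 1 (0.22) or 2 (0.25). HOXC8, HOXC11, HOXC12 and HOXC13, genes of the lower trunk and, for the last, of hair, were called in none.

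HOXD1, which acts in pain-sensing neurons in the mouse, was the HOXD gene that rose most. Its log2 levels were 8.35 and 8.39 with DAC at 5 µM and 7.74 and 7.82 at 120 nM, 8.48 and 8.72 with the higher and 7.60 and 7.51 with the lower dose of G669071, and 8.08 and 8.42 with G668684 at 7 µM and 7.79 and 7.73 at 150 nM. They were 7.26 and 7.51 with Aza at 1500 nM, 7.11 and 7.12 at 150 nM, 7.34 and 7.31 with G669043 at 1500 nM and 7.14 and 7.21 at 150 nM, and 7.42, 7.20, 7.18 and 7.21 with DMSO (7.25 ± 0.11). All arrays of DAC, G669071 and G668684 were above DMSO, and the higher dose of each lay above its lower dose without overlap. The change was 1.12 ± 0.10 with DAC at 5 µM (adjusted p = 2.2e-08) and 0.53 at 120 nM (0.00058), 1.35 (1.5e-09) and 0.30 (0.056) with the higher and lower dose of G669071, and 1.00 (1.2e-07) and 0.51 (0.00094) with G668684 at 7 µM and 150 nM. With Aza and G669043 it lay between -0.14 and 0.13 and passed in none of the 4 groups.

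The HOXD1 probe set was also of the kind that can bind several transcripts, and its 5 calls were kept when any array was left out. The other probe set ran from 4.60 to 5.17 on treated arrays and from 4.57 to 4.95 on DMSO arrays, near the lowest level tested, and was called in no comparison. Averaging both gave 0.54 with DAC at 5 µM (adjusted p = 1.2e-04).

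HOXD13, a gene of the fingers and toes whose mutation causes synpolydactyly in people, rose with 4 treatments. Its log2 levels were 6.90 and 6.94 with DAC at 5 µM and 6.94 and 6.98 at 120 nM, 6.98 and 7.02 with the higher and 6.46 and 6.55 with the lower dose of G669071, and 7.21 and 6.99 with G668684 at 7 µM and 7.02 and 6.67 at 150 nM. They were 6.41 and 6.88 with Aza at 1500 nM, 6.46 and 6.45 at 150 nM, 6.50 and 6.28 with G669043 at 1500 nM and 6.29 and 6.56 at 150 nM, and 6.68, 6.35, 6.47 and 6.63 with DMSO (6.53 ± 0.15). Both doses of DAC and the higher doses of G669071 and G668684 lay above DMSO, with changes of 0.39 ± 0.13 (adjusted p = 0.028), 0.43 (0.022), 0.47 (0.0089) and 0.57 (0.0017). The remaining groups overlapped DMSO. A second probe set was called with DAC at 5 µM (0.37, adjusted p = 0.026) and the higher dose of G669071 (0.42, 0.013), and the third, below the level for testing, had 4.35 and 4.76 with DAC at 5 µM and 4.67 and 4.68 with the higher dose of G669071, against 4.09, 4.10, 3.76 and 3.84 with DMSO.

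None of the 4 HOXD13 calls was kept under every alternative. Without DMSO replicate 2 adjusted p was 0.075 with DAC at 5 µM and 0.057 at 120 nM, and without either treated array it was 0.11 and 0.17 at 5 µM, 0.095 and 0.1 at 120 nM and 0.058 and 0.086 with G669071. The call with G668684 was lost without its replicate 1 (0.06). HOXD10, a gene of the hindlimb in the mouse, rose with the lower dose of G669071 alone, at 6.13 and 6.14 against 5.66, 5.74, 5.52 and 5.60 with DMSO (0.50 ± 0.11, adjusted p = 0.003), and averaging its probe sets ended that call (0.24, 0.1). HOXD11, which acts with HOXA11 in the forearm and kidney of the mouse, had 6.77 and 6.65 with the higher dose of G669071 and 6.49 and 6.74 with Aza at 1500 nM, against 6.46, 6.15, 6.24 and 6.35 with DMSO, changes of 0.41 (adjusted p = 0.0043) and 0.32 (0.045). The first was lost without G669071 replicate 1 (0.088), and the second without Aza replicate 2 (0.52) or DMSO replicate 2 (0.099), 3 (0.091) or 4 (0.056). HOXD4, HOXD8 and HOXD9 were called in none.

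Between the doses of a compound, fewer HOX genes were called and all that were had the higher level at the higher dose. With DAC at 5 µM against 120 nM these were HOXD1 (0.59 ± 0.11, adjusted p = 0.0017), HOXC9 (0.51 ± 0.13, 0.013) and HOXB8 (0.35 ± 0.09, 0.016), 3 of 26 genes where 7.90% of all genes were higher and 13% called in either direction. With G668684 at 7 µM against 150 nM the genes were the same by name: HOXD1 by 0.49 ± 0.11 (0.0093), HOXC9 by 0.48 ± 0.13 (0.023) and HOXB8 by 0.46 ± 0.09 (0.0024), where 6.98% of all genes were higher and 10.2% called in either direction. HOXD1 was the 1 gene called between the doses of G669071, by 1.04 ± 0.11 (5.6e-06), where 5.03% of all genes were higher and 7.99% called in either direction. It was the 1 call between doses of any compound that held in all 11 refits tracked for each. For these 3 compounds the share of HOX genes called was near or below that of all genes.

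With Aza the 1 gene called was HOXC10, by 0.66 ± 0.12 (adjusted p = 0.002), where 2.06% of all genes were higher and 4.92% called in either direction. With G669043 HOXB6 (0.67 ± 0.14, 0.0099), HOXB2 (0.65 ± 0.12, 0.0057) and HOXC10 (0.56 ± 0.12, 0.011) were higher at 1500 nM than at 150 nM, 3 genes where 1.34% of all genes were higher and 3.01% called in either direction. HOXB2 did not differ detectably between doses of DAC (-0.21, 95% interval -0.47 to 0.05), of G669071 (-0.06, -0.32 to 0.20) or of G668684 (-0.10, -0.35 to 0.16). HOXC10 was lower at the higher dose of DAC by 0.30 (adjusted p = 0.12) and of G668684 by 0.31 (0.13), differences that missed the threshold. HOXB6 was higher at the higher dose of DAC, G669071 and G668684 by 0.35 to 0.38, which missed it too (0.11 to 0.13).

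**Figure D4:**
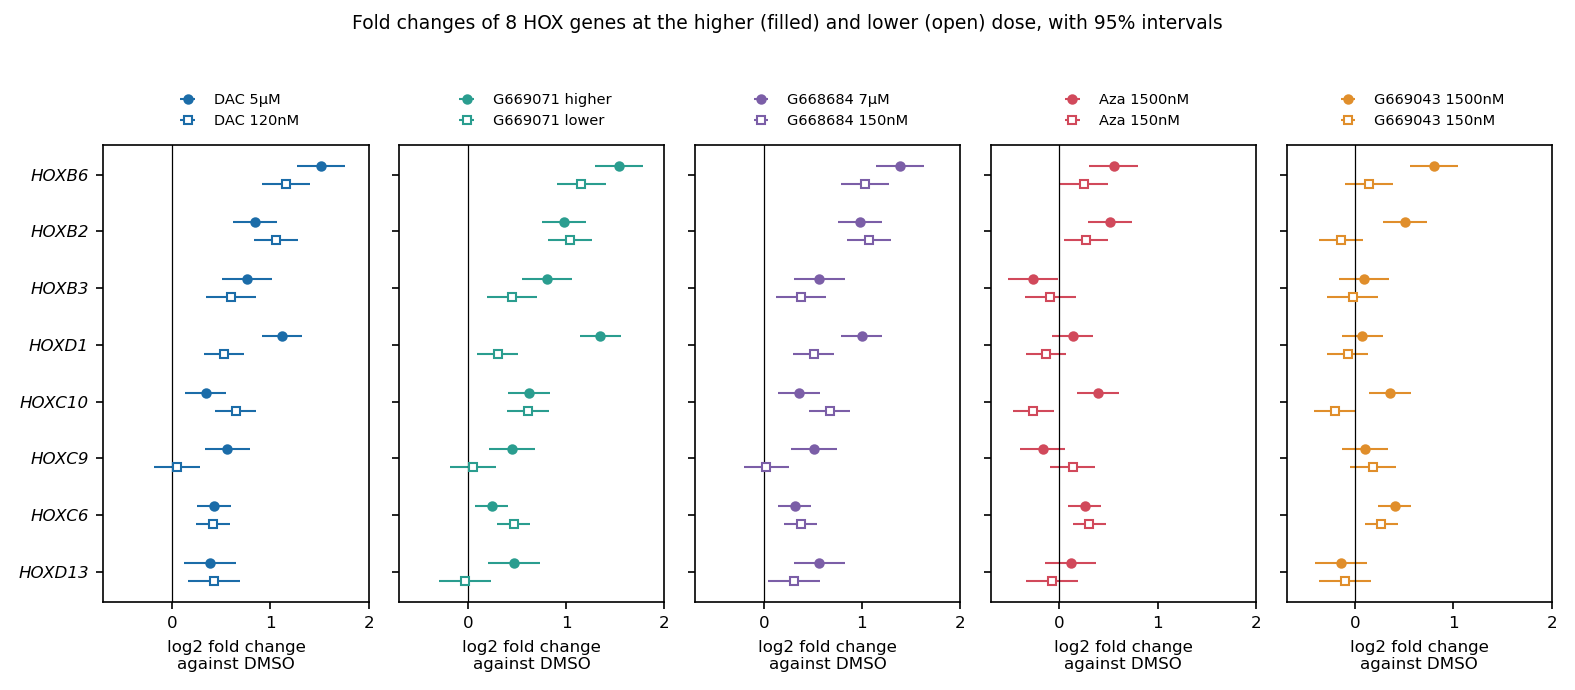
Log2 fold change against DMSO (horizontal axis) of 8 HOX genes at the higher (filled circles) and the lower dose (open squares) of each compound, with 95% intervals. For HOXD1 and HOXC9 the higher dose lies to the right in the panels of DAC, G669071 and G668684, for HOXB2 the 2 doses overlap there, and in the panels of Aza and G669043 the lower dose stays near 0 for most genes.

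Most of these dose calls were lost when a dose was left with 1 array, while the change moved by over 1.5 times in 1 of 21 such losses and turned its sign in 0. For HOXC9, adjusted p was 0.2 without replicate 2 of DAC at 5 µM and 0.1 without replicate 1 at 120 nM, and 0.31 without replicate 2 of G668684 at 7 µM and 0.27 without replicate 1 at 150 nM. For HOXB8 it was 0.086, 0.11 and 0.19 without replicate 1 or 2 of DAC at 5 µM or replicate 1 at 120 nM, and 0.051 and 0.077 without replicate 2 of G668684 at 7 µM or replicate 1 at 150 nM. HOXD1 with G668684 gave 0.21 without replicate 2 at 7 µM, where the change was 0.32, and 0.054 and 0.062 without replicate 1 or 2 at 150 nM. HOXC10 with Aza gave 0.079 and 0.072 without replicate 2 at 1500 nM or at 150 nM. With G669043, leaving out replicate 2 at 1500 nM or replicate 2 at 150 nM ended the calls of HOXB6 (0.12 and 0.16), HOXB2 (0.063 and 0.16) and HOXC10 (0.091 and 0.15), and for HOXC10 so did replicate 1 at 1500 nM (0.08). Averaging the probe sets of a gene ended the HOXD1 calls between doses of DAC (0.22, adjusted p = 0.19) and of G668684 (0.10, 0.61) and the HOXB8 call of DAC (0.14, 0.36), and it gave 0.51 (0.0042) for HOXD1 between doses of G669071.

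Aza and G669043 shared both of their doses, and they were compared directly at each. At 1500 nM limma called 0 of 26 HOX genes between G669043 and Aza (2 had an unadjusted p under 0.05, and 1.67% of all genes were called), and at 150 nM also 0 (2, and 0.0665%). G669043 minus Aza at 1500 nM was 0.26 for HOXB6 (95% interval -0.03 to 0.54), -0.01 for HOXB2 (-0.27 to 0.25), -0.04 for HOXC10 (-0.29 to 0.21) and 0.14 for HOXC6 (-0.05 to 0.34). HOXB3 differed most, by 0.36 (0.06 to 0.66, adjusted p = 0.26), with 7.95 and 8.02 with G669043 and 7.83 and 7.42 with Aza. At 150 nM the difference of HOXB2 was -0.41 (-0.67 to -0.16, adjusted p = 0.41), from 8.16 and 7.79 with G669043 against 8.32 and 8.46 with Aza. Intervals of this width do not show that the compounds act alike on these genes. G668684 was also given at 150 nM, and the source names put the higher dose of G669071 at 120 nM, the lower dose of DAC; the differences at these doses were not tested here, and the values stand side by side above.

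Noncoding RNAs transcribed from the clusters were also read. Of 10 tested genes 2 rose and 1 fell with DAC at 5 µM, where 30.7% of all genes were called. HAGLROS, read from the HOXD cluster, had 6.22 and 6.18 with DAC at 5 µM against 5.74, 6.06, 5.76 and 5.50 with DMSO, a change of 0.43 (adjusted p = 0.018). HAGLR from the same cluster changed by 0.36 (0.043). The levels of HAGLR, 6.74 and 7.34, overlapped those with DMSO, 6.70, 6.67, 6.46 and 6.89. Another tested HAGLR probe set changed by 0.445 (0.02), with both treated arrays above DMSO. HOXC-AS3, read opposite HOXC genes, changed by -0.36 (0.02). Its levels of 6.99 and 6.67 overlapped those with DMSO, 7.46, 7.21, 7.15 and 6.96. A probe set of HOXB-AS3 had 6.92 and 6.90 with DAC at 5 µM against 6.70, 6.68, 6.24 and 6.15 with DMSO (0.47, adjusted p = 0.0059), while DMSO replicates 3 and 4 stood below replicates 1 and 2 there. Another, below the level for testing, had 4.69 and 4.52 with DAC at 5 µM against 3.50, 3.49, 3.52 and 3.58 with DMSO, and the remaining HOXB-AS3 probe sets were not called with that treatment. HOTTIP fell with G668684 at 7 µM (-0.34, 0.021).

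The partners and regulators of HOX genes were read from lists chosen with earlier results of these data known, and with DAC at 5 µM their counts stand beside 17.4% of all genes higher and 13.4% lower. Among HOX cofactors, PKNOX1, a homeobox protein that binds DNA together with HOX proteins, rose by 0.56 with DAC at 5 µM (adjusted p = 6.9e-04), 1 of 7 tested with 1 lower. MEIS2, another cofactor, fell by 0.56 with Aza at 1500 nM (0.0041). Of 27 Polycomb genes, which keep HOX clusters silent, 2 rose and 9 fell with DAC at 5 µM, among them EZH2, the methyltransferase (-0.66, 4.2e-04), CBX2, a reader (-0.71, 4.6e-08), and PHF19 (-0.74, 1.4e-06). Of 18 Trithorax and related activators 4 rose and 5 fell with DAC at 5 µM, and the chromatin tether PSIP1 fell by 1.03 (2.2e-08).

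Of 19 genes of the CDX and retinoic acid system, which switches on HOX genes in the embryo, 2 rose and 1 fell with DAC at 5 µM. Those that rose were CYP26A1 (0.86, adjusted p = 7.5e-05) and CYP26B1 (0.51, 0.0042), enzymes that break down retinoic acid. CDX2, the intestinal homeobox gene that acts upstream of HOX genes in the mouse, changed by 0.38 with G669043 at 1500 nM (0.024) and 0.30 with Aza (0.049), and by 0.16 with DAC at 5 µM (0.26). Among 84 homeobox genes outside the clusters 9 rose and 4 fell with DAC at 5 µM, a smaller share than the 30.7% of all genes called, and the largest increases were those of MSX1 (1.40, 2.4e-09), MSX2 (1.35, 9e-08) and DLX2 (1.14, 2.3e-06). Of 36 protein-coding genes that flank the clusters in RefSeq, 6 rose and 8 fell with DAC at 5 µM, with TAX1BP1 beyond HOXA at 0.67 (1e-04) and HNRNPA1 beyond HOXC at -0.82 (2.7e-08). With DAC at 5 µM the median change was -0.06 over the cofactors, -0.14 over the Polycomb genes, -0.07 over the Trithorax genes, -0.05 over the CDX and retinoic acid genes, 0.0013 over the other homeobox genes and 0.02 over the flanking genes, beside -0.04 over all genes. Both directions occurred in each of these lists.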

How the data were processed

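Levels are the RMA intensity values the authors deposited (made in Expression Console 1.1 by Affymetrix, according to the submitters' processing notes). Their log2 was taken here. The sources used here name no genome build. Detection calls were not used, and 0 value columns were left unused. Probe sets took symbols from the array's probe table: 41091 had 1 symbol, 1801 several and 11721 were not listed. A gene was represented by its kept probe set with the highest mean. limma 3.58.1 in R 4.3.3 fitted a mean per group to all 24 arrays (lmFit, then eBayes whose prior variance followed the intensity; 13 degrees of freedom were residual and 7.2 came from the prior). A call needed a 2-sided Benjamini-Hochberg adjusted p under 0.05 over 44426 probe sets. The median half-width of a 95% interval was 0.22 log2 units against DMSO and 0.25 between treated groups; the number of arrays limits this precision. Genes are shown by array if called against DMSO with both treated arrays beyond all DMSO arrays; others are given by counts and ranges, and of each other list up to 6 called genes. The members and lists were chosen with earlier results of these data known. Alternatives covered filters, normalization, features, samples fitted, the variance trend, the replicate number, beta-actin 3′ minus 5′ values and each left-out array. The model was tested on simulated data. Tables and figures used Python 3.11.15, pandas 2.3.3 and matplotlib 3.10.9.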

Additional observations from a re-analysis of the deposited data

Results flagged for a closer look

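In a check of the 4 DMSO arrays for each of the 26 HOX genes, 2 had an array whose gap to the nearest other exceeded Dixon's 95% critical value, where chance gives about 1 in 20. HOXD1 had 7.42 on DMSO replicate 1, with the other DMSO arrays between 7.18 and 7.21. HOXB9 had 8.70 on DMSO replicate 2, with the others at 8.51. Both arrays lie toward the treated levels of their gene.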

How the results depend on the processing

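Of 278 recomputed counts of called HOX probe sets, 219 stayed within 1.5 times the value reported. Among the refits of called changes of named genes, 936 kept direction and side of the threshold and 205 fell below it. For changes not called, only refits that passed the threshold or reversed were kept. There were 65 that passed, and refits that stayed uncalled were not counted, so no share is given. In all 0 reversed. Of 68 calls against DMSO 30 were kept in all 15 refits tracked for each call. Of 11 calls between doses 1 was kept in all 11 refits tracked there. The tracked refits did not include the filters, the fit with 1 probe set a gene or the fit without _x_at and _s_at probe sets. In them HOXB6 and HOXD1 kept all of their calls against DMSO. Leaving out 1 array ended calls against DMSO 91 times, with the change moved by over 1.5 times in 4 of them. Without probe sets named _x_at or _s_at, 27 were tested and fewer called: 8 with DAC at 5 µM and 4 at 120 nM, 7 and 4 with the higher and lower dose of G669071, 7 and 3 with G668684 at 7 µM and 150 nM, 3 with Aza and 2 with G669043 at 1500 nM, and between doses 1 of DAC, 0 of G669071 and 1 of G668684. Fitting only the groups compared, which leaves fewer samples, called 5 with DAC at 120 nM, 7 and 4 with G668684 at 7 µM and 150 nM, 2 with Aza and 1 with G669043 at 1500 nM, and between doses 1 of DAC, 8 of G669071, 0 of G668684 and 2 of Aza, and 2 between G669043 and Aza at 150 nM. Against DMSO replicates 3 and 4 alone 10 were called with Aza and 3 with G669043 at 1500 nM, and against replicates 1 and 2 alone 1 with Aza and 8 with G669043 at 150 nM (3 higher, 5 lower). With the beta-actin value as covariate 1 was called with Aza at 150 nM and 5 between doses of G669071. That contrast also gave 2 with the stricter filter, 3 after quantile normalization, 2 with centred arrays and 3 with 1 probe set a gene. The cause of these shifts was not tested.

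Leaving out 1 array at a time gave 8 to 13 calls with DAC at 5 µM and 6 to 8 at 120 nM, 6 to 13 and 5 to 8 with the higher and lower dose of G669071, 6 to 14 and 4 to 8 with G668684 at 7 µM and 150 nM, 1 to 5 with Aza and 1 to 5 with G669043 at 1500 nM, 0 to 1 with Aza and 0 to 0 with G669043 at 150 nM. Between doses it gave 1 to 4 for DAC, 1 to 1 for G669071, 0 to 3 for G668684, 0 to 1 for Aza and 0 to 3 for G669043, and 0 to 0 between G669043 and Aza at either dose.

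Groups share replicate numbers, but the numbers did not pair the samples across all groups. The differences of replicate 1 minus 2 correlated at a median of 0.0085 over 55 pairs of groups (-0.37 to 0.58), 18 of them over 0.1. The 6 pairs among both doses of DAC and of G668684 correlated at 0.25 to 0.58, so arrays with the same number shared some deviation there. The calls reported above were fitted without it. With the replicate number as a block, which can use only DMSO replicates 1 and 2 against the treated arrays, 1 probe set was called with Aza at 150 nM, 8 with G669043 at 1500 nM (5 higher, 3 lower) and 8 at 150 nM (3 higher, 5 lower), and between doses 5 of DAC (4 higher, 1 lower), 5 of G669071 and 2 of Aza. With 2 arrays a treated group, a change against DMSO below the median half-width of its 95% interval, 0.22 log2 units, was mostly not detectable.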
